A study of Mus musculus with 7 samples.

Results

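The genes of antigen presentation by major histocompatibility complex (MHC) class II were followed in endometrial epithelial cells of female C57BL/6 mice without ovaries. The 7 members were taken by symbol from a table of 24353 genes. They are the chains H2-Ab1, H2-Aa and H2-Eb1, the peptide-exchange subunits H2-DMa and H2-DMb1, the invariant chain Cd74 and the class II transactivator Ciita. The mice lost their ovaries at 6 to 7 weeks of age and were treated for 28 days. A total of 18 mice were randomized, 6 per arm, to vehicle (estrogen deprivation), to subcutaneous tamoxifen at 0.5 mg per day, or to the same tamoxifen with the PI3K alpha inhibitor alpelisib at 30 mg/kg per day (the combination), and a further 2 mice received estradiol from a 0.01 mg pellet. RNA was sequenced in 7 libraries: 1 of vehicle, 2 of estradiol, 2 of tamoxifen and 2 of tamoxifen plus alpelisib. The paired libraries are labelled as separate mice. How many mice the vehicle library stands for, and how epithelium was separated from the uterine horns, was not given in the sources used here. Rows carry these genes as H2-AB1, H2-AA, H2-EB1, H2-DMA, H2-DMB1, CD74 and CIITA, and symbols are written here in mouse style.

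MHC class II molecules show peptides from endocytosed and lysosomal proteins to CD4+ T cells. The alpha and beta chains assemble with the invariant chain, which fills the peptide groove and guides the complex to endosomes. Lysosomal proteases then trim the invariant chain, and the DM heterodimer exchanges its last fragment for a peptide. Transcription of the whole set depends on CIITA, a coactivator without DNA binding of its own that docks on RFX, CREB and NF-Y factors at the X and Y boxes of class II promoters, and interferon gamma induces CIITA in many cells. Macrophages, dendritic cells and B cells carry these molecules, and epithelia, the uterine epithelium included, can do so as well. C57BL/6 mice lack a working E alpha gene, so that the E beta chain of H2-Eb1 has no partner at the cell surface. In these libraries the E alpha pseudogene H2-Ea-ps was listed at 0 in all 7, as was H2-Eb2.

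The promoters of members are shown because these genes largely moved together and their promoters share a textbook layout. RefSeq windows of 300 bases on build GRCm38.p6, from 250 bases before to 50 after the start of the gene, were at hand for 4 of the 7 members. They were searched on both strands for GNAAC, the core of the X box to which RFX binds, followed 25 to 45 bases later on the same strand by GATTGG, the core of the Y box to which NF-Y binds. The 3 windows with such a pair are H2-Aa (chr17:34287774-34288073, minus strand), H2-Eb1 (chr17:34305617-34305916, plus strand) and H2-DMb1 (chr17:34152941-34153240, plus strand). They are printed 5′ to 3′ on the strand of the gene, with the X-type and then the Y-type match in capitals.
H2-Aa: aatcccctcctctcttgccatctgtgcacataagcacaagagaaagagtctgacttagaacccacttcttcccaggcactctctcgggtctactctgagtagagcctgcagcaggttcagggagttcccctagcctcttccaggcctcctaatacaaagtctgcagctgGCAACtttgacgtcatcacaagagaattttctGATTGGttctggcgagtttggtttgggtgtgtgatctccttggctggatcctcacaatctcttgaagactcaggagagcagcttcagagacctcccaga
H2-Eb1: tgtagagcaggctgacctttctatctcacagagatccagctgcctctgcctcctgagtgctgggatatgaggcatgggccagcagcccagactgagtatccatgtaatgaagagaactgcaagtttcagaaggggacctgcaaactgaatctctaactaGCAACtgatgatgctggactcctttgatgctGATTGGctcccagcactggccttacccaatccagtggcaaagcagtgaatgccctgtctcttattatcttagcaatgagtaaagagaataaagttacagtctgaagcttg
H2-DMb1: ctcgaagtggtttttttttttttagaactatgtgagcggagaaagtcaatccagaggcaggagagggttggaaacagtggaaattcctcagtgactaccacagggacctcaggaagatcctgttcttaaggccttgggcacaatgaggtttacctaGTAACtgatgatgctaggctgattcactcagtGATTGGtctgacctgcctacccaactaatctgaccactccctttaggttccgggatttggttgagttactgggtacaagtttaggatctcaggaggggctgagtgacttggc
The matches began 32, 31 and 32 bases apart, with the Y-type match 49, 60 and 62 bases before the gene start. Of 32851 promoter windows of the same length 1.17% held such a pair, whereas 84.8% held GNAAC and 16.1% held GATTGG. Neither window of H2-DMa held the pair. The letters searched were chosen with these sequences in view, and a match of letters is a description and does not show that a factor binds there.

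Values are fragments per kilobase of transcript, relative to the total of the library (FPKM), so levels can be compared between genes. Comparisons used limma on log2(FPKM + 1) over the 12314 genes that reached an FPKM of 1 in any library. A gene is called where its p adjusted over all of them (Benjamini-Hochberg) is under 0.05. Fold changes are on this scale, which understates changes of low genes, and are given ± SE. The vehicle group has 1 library and its spread is taken from the other groups. Of the members, 6 passed the filter. H2-Ab1, H2-Aa and Cd74 passed in all 7 libraries and H2-Eb1 and H2-DMb1 in 6. H2-DMa passed in 3, both estradiol libraries among them. Ciita was under 1 FPKM everywhere. Genes of the other lists that reached 1 FPKM in libraries of 1 group only had to differ from the rest, so they are left out of the counts of genes that rose or fell, and where such a gene is named its levels are given without a test. The shares over all tested genes set beside these counts still include genes of this kind.

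The lowest values of genes with 1 transcript put the depth between 16.6 and 19.0 M fragments in 6 libraries. Estradiol 2 showed no clear step. Its most common step held 20 genes, against 45 to 57 in the others, and would put its depth at 5.86 M fragments. It had the smallest sum of FPKM over genes (264322, against 320527 to 403562 in the others) and the highest ribosomal RNA precursor (2276 FPKM, against 189 to 764). Epithelial markers were high in every library, with Epcam between 202 and 289 FPKM and Krt8 between 769 and 2295. The leukocyte marker Ptprc was between 0.0525 and 0.940. With median-of-ratios scaling the share of higher genes among those called moved from 63.97% (estradiol over vehicle) to 48.7%, from 38.2% (tamoxifen over vehicle) to 48.3% and from 25.4% (tamoxifen over estradiol) to 50.5%. With alpelisib added to tamoxifen this share moved from 37.7% over vehicle to 50.1% and from 29.6% over estradiol to 51.2%. Over all genes the median log2 fold change, at 0.12, -0.12, -0.26, -0.15 and -0.26 in the same order, moved to between -0.01 and 0.01, and the fold changes of members are to be read against it.

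Class II transcripts stood highest with estradiol, lower in vehicle and lowest in the tamoxifen-treated epithelium. In all 7 members both estradiol libraries lay above the other 5 libraries, an order that 30.1% of the tested genes shared. In 6 of the 7 members vehicle lay above the 4 tamoxifen-treated libraries, as in 43.6% of the tested genes. In the same 6 the vehicle library lay between the estradiol libraries and the 4 tamoxifen-treated libraries, an order found in 13.7% of the tested genes. The exception was H2-DMa, in which a library of tamoxifen plus alpelisib lay above vehicle. Ciita, part of each of these counts, is not among the tested genes. Its vehicle value rests on about 2 fragments, against 1 or 0 in each tamoxifen-treated library. H2-Eb1 was almost level in estradiol 2 (6.31 FPKM) and vehicle (6.29). The summed FPKM of the 7 members was 282 and 181 with estradiol, 45.8 in vehicle, 16.2 and 20.7 under tamoxifen, and 15.0 and 18.7 with the combination. In bulk RNA, fewer cells that express a gene and less RNA per cell cannot be told apart.

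**Figure D1:**
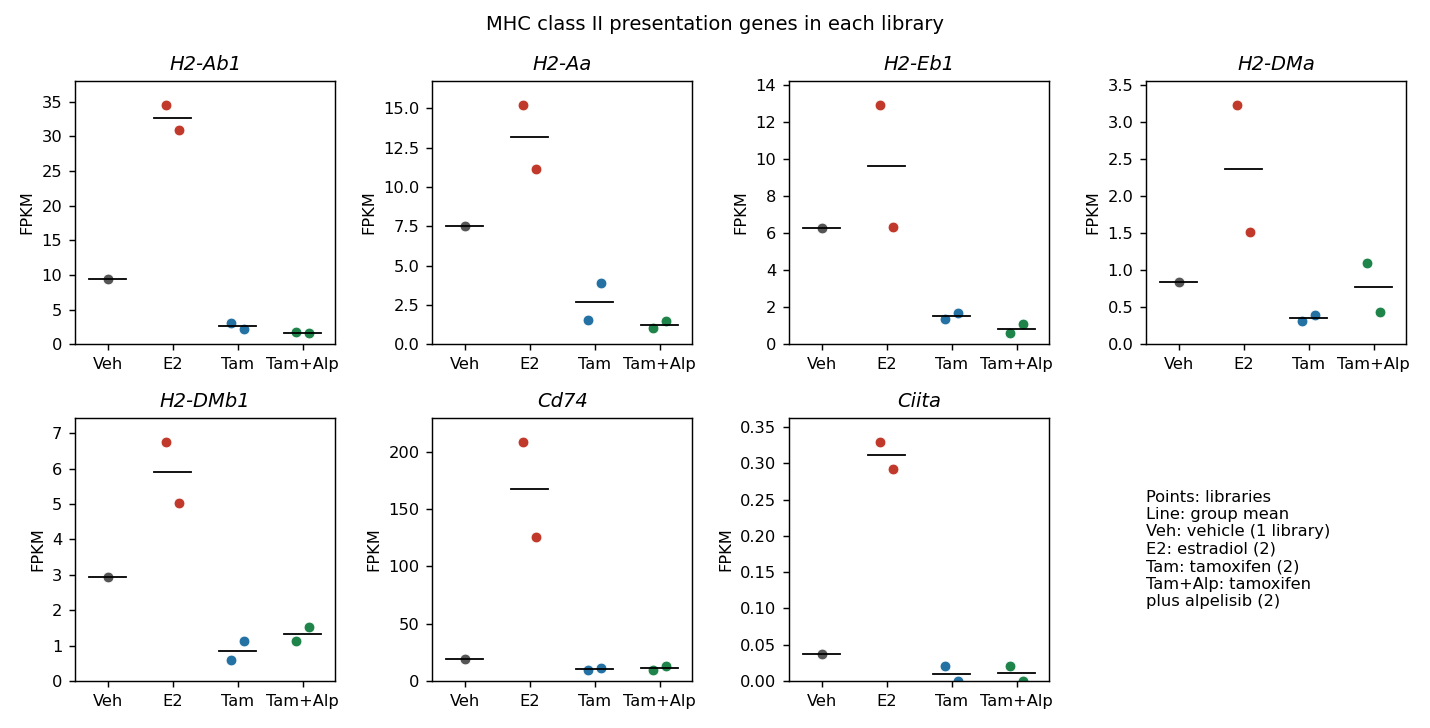
FPKM of the 7 class II members (linear axes from 0, a scale of its own for each gene) in vehicle (Veh, 1 library), estradiol (E2), tamoxifen (Tam) and tamoxifen plus alpelisib (Tam+Alp; 2 libraries each). Points are libraries and lines are group means; both estradiol points are the highest in every panel.

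The classical chains form the peptide-binding heterodimer. The beta chain gene H2-Ab1 had an FPKM of 34.5 and 30.8 with estradiol, 9.44 in vehicle, 3.11 and 2.25 under tamoxifen, and 1.69 and 1.62 with the combination. No 2 groups overlapped, and replicates differed by at most 1.39 times. Its partner in the A heterodimer, the alpha chain gene H2-Aa, stood at 15.2 and 11.1 with estradiol, 7.54 in vehicle, 1.52 and 3.90 under tamoxifen, and 1.004 and 1.45 with the combination. Its tamoxifen libraries differed by 2.57 times, the widest gap between replicates of any member with both above 0, and the lower of them was close to the alpelisib libraries. The E beta chain gene H2-Eb1 was at 12.9 and 6.31 with estradiol, 6.29 in vehicle, 1.37 and 1.67 under tamoxifen, and 0.618 and 1.06 with the combination. Estradiol 2 and vehicle were almost level for this gene.

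The invariant chain gene Cd74 was the most abundant member in every library. Its FPKM was 209 and 126 with estradiol and 18.7 in vehicle. It was 9.32 and 11.4 under tamoxifen and 9.49 and 12.6 under tamoxifen plus alpelisib. The 2 tamoxifen-treated groups overlapped and both lay below vehicle. Counted from the highest FPKM among all 24353 genes, Cd74 ranked 220 and 275 with estradiol, 2522 in vehicle and from 3412 to 4106 in the tamoxifen-treated libraries.

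The DM genes were low. H2-DMb1, the DM beta subunit, had an FPKM of 6.76 and 5.03 with estradiol, 2.94 in vehicle, 0.578 and 1.13 under tamoxifen, and 1.12 and 1.53 with the combination. H2-DMa, the alpha subunit, had 3.23 and 1.51 with estradiol, 0.834 in vehicle, 0.319 and 0.392 under tamoxifen, and 1.099 and 0.437 with the combination. Of the windows of 50 bases in the H2-DMb1 transcripts, 22.7% also occur in its neighbour H2-DMb2, so that reads of these copies could be exchanged. H2-DMb2 itself was listed at no more than 0.388 in any library. The other members shared less than 0.5% of such windows with any other gene.

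The transactivator gene Ciita was near the limit of detection. Its FPKM was 0.330 and 0.293 with estradiol and 0.0375 in vehicle, and it was 0.0204 and 0.0210 in the first library of tamoxifen and of tamoxifen plus alpelisib and listed at 0 in the second of each. Taking 0.0210 as a single fragment, the estimated depths make this about 15 fragments in estradiol 1, 2 in vehicle and 1 in tamoxifen 1. Estradiol 2 is left out here, because its step, at 5.86 M fragments, was unclear. Ciita was not tested in the main comparison. With no filter on low values it was higher with estradiol than in vehicle (log2 0.34 ± 0.03, adjusted p = 0.00623), than with tamoxifen (adjusted p = 0.00264) and than with tamoxifen plus alpelisib (adjusted p = 0.00221). Tamoxifen against vehicle had adjusted p = 0.448 there.

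Estradiol against vehicle asks what estrogen does in mice without ovarian hormone. The 2 estradiol mice were not among the 18 randomized. In every comparison with estradiol, the treatment and the way mice were assigned thus cannot be told apart. Cd74 and H2-Ab1 rose. Cd74 went from 18.7 FPKM to 168 ± 58.8 (SD, n = 2), 8.94 times the vehicle value (log2 fold change 3.05 ± 0.33, adjusted p = 0.00171). H2-Ab1 went from 9.44 to 32.7 ± 2.59 (SD, n = 2), 3.46 times (log2 fold change 1.69 ± 0.19, adjusted p = 0.00202). The other 4 tested members did not pass, with log2 fold changes of 0.72 ± 0.40 for H2-Aa, 0.47 ± 0.38 for H2-Eb1, 0.83 ± 0.35 for H2-DMa and 0.80 ± 0.26 for H2-DMb1 (adjusted p from 0.0551 to 0.369). Thus 2 of the 6 tested members were called higher and 0 lower, against 35.5% of all tested genes called, 22.7% higher and 12.8% lower. The median of the tested members was 0.81. With only the compared groups in the fit, both calls ended (adjusted p = 0.0535 each). Without estradiol 2, the library with the smallest sum, H2-Eb1 and H2-DMa were called too (adjusted p = 0.0440 and 0.0399).

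Macrophage markers moved with estradiol as well. Of the 7 counted, 3 rose and 0 fell, and the summed FPKM of all 12 found was 54.5 in vehicle and 169 and 105 with estradiol. Adgre1, the F4/80 antigen, was at 0.278 in vehicle and at 3.32 and 2.36 with estradiol. Csf1r, the receptor for macrophage colony-stimulating factor, was at 0.523 in vehicle and at 4.27 and 4.19 with estradiol. The counted markers that rose were Cd14, C1qa and C1qc. Mertk, at 1.89 in vehicle and 1.27 and 1.74 with estradiol, and Lyz2, at 13.7 and then 19.6 and 8.79, were not called. Of 5 general leukocyte markers counted, 3 rose and 0 fell, with sums over all 8 of 12.6 in vehicle and 74.1 and 53.1 with estradiol. Ptprc, not tested, was at 0.234 in vehicle and at 0.940 and 0.793 with estradiol. No dendritic cell marker could be counted. Their summed FPKM was 1.51 in vehicle and 1.75 and 0.9996 with estradiol. Zbtb46, the 1 gene of this list to reach 1 FPKM, was at 1.11 in vehicle and at 0.435 and 0.624 with estradiol. Itgax, an integrin of dendritic cells and some macrophages, was at 0.0857 in vehicle and 0.998 and 0.341 with estradiol. Ccr7, Cd209a, Clec9a and Siglech, all low, were below vehicle in both estradiol libraries, and Irf4, also low, was above it. Xcr1 was at 0 in these 3 libraries. Of the B cell markers Cd79b, the only one tested, rose (0.99 ± 0.28, adjusted p = 0.0365), and the sum was 0.782 in vehicle and 2.64 and 1.62 with estradiol. The B cell gene Cd22 was listed at 0 in vehicle and at 0.267 and 0.0276 with estradiol, and Ms4a1 and Pax5 were listed at 0 in vehicle and in both estradiol libraries. Of 10 epithelial markers 4 fell and 0 rose, while Epcam was at 206 in vehicle and 234 and 202 with estradiol. Smooth muscle markers fell in 5 of 5 counted cases, with sums of 72.7 in vehicle and 9.14 and 6.14 with estradiol. Of 5 endothelial markers 3 fell and 0 rose, and of 7 stroma markers 2 rose and 2 fell. The part of any of these cells in the estradiol result was not tested.

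Set against macrophage markers, the outcome depended on the marker. The ratio of Cd74 FPKM to the summed macrophage list was 0.344 in vehicle, 1.23 and 1.20 with estradiol, 0.164 and 0.160 with tamoxifen, and 0.0699 and 0.0937 with the combination. Cd14 and Cd68 make up much of that sum. Per unit of Csf1r, Cd74 was at 35.8 in vehicle, 48.9 and 30.1 with estradiol, 21.7 and 63.0 with tamoxifen, and 19.6 and 28.4 with the combination, so that vehicle lay within the range of the estradiol and of the tamoxifen libraries. H2-Ab1 per unit of Csf1r was 18.1 in vehicle, the highest of the 7 libraries, 8.08 and 7.37 with estradiol, 7.25 and 12.4 with tamoxifen, and 3.49 and 3.65 with the combination. Csf1r was at 0.523 in vehicle and 0.181 to 0.485 in the tamoxifen-treated libraries, so outside estradiol these ratios divide by values near the floor. Over the summed macrophage list H2-Ab1 was 0.173 in vehicle, 0.204 and 0.294 with estradiol, and 0.0120 to 0.0546 in the tamoxifen-treated libraries. Over the summed leukocyte list it was 0.747 in vehicle, 0.466 and 0.581 with estradiol, and 0.0339 to 0.0644 in the tamoxifen-treated libraries. Relative to H2-Ab1, Cd74 was at 1.98 in vehicle, the lowest of the 7 libraries, at 6.06 and 4.08 with estradiol, at 2.99 and 5.07 with tamoxifen, and at 5.61 and 7.79 with the combination. These ratios were not tested.

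Tamoxifen against vehicle asks what the drug does without ovarian estrogen. H2-Ab1, H2-Aa, H2-Eb1 and H2-DMb1 fell. H2-Ab1 went from 9.44 FPKM to 2.68 ± 0.613 (SD, n = 2), or -1.51 ± 0.19 as a log2 fold change (adjusted p = 0.00196). H2-Eb1 went from 6.29 to 1.52 ± 0.213 (SD, n = 2; -1.53 ± 0.38, adjusted p = 0.0208) and H2-DMb1 from 2.94 to 0.854 ± 0.390 (SD, n = 2; -1.10 ± 0.26, adjusted p = 0.0176). The call of H2-Aa, from 7.54 to 2.71 ± 1.68 (SD, n = 2; -1.28 ± 0.40, adjusted p = 0.0463), was close to the threshold. Cd74 (-0.80 ± 0.33, adjusted p = 0.102) and H2-DMa (-0.44 ± 0.35, adjusted p = 0.368) did not pass. Of the 6 tested members 4 were called lower and 0 higher, against 39% of all tested genes called, 14.9% higher and 24.1% lower, and their median was -1.19. The H2-Ab1 call was kept in all 14 alternative settings of the fit. Those of H2-Aa, H2-Eb1 and H2-DMb1 were kept in 5, 10 and 12, and all 3 ended without tamoxifen 1 (adjusted p = 0.0910, 0.0775 and 0.0614).

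Beside this decrease, macrophage markers rose in 1 and fell in 2 of 7 counted cases, with sums of 54.5 in vehicle and 57.0 and 71.3 with tamoxifen. Cd68 rose, and Lyz2, the lysozyme of myeloid cells, and Mertk, a receptor for apoptotic cells, fell. Adgre1, at 0.151 and 0.183, and Csf1r, at 0.429 and 0.181, were below their vehicle values of 0.278 and 0.523. Cd14, C1qa and C1qc were not called but lay above vehicle in both tamoxifen libraries. Cd14 was at 20.8 in vehicle and at 31.0 and 34.7 with tamoxifen, and C1qa at 2.82 and then 3.16 and 3.63. C1qc was at 1.31 in vehicle and at 2.29 and 1.60 with tamoxifen. Mrc1, a mannose receptor of resident macrophages, was at 0.182 in vehicle and listed at 0 in both tamoxifen libraries. General leukocyte markers went both ways. Coro1a fell, from 1.17 in vehicle to 0.0709 and 0.274, while Laptm5 and Cd52 rose. Ptprc, not tested, was at 0.234 in vehicle and at 0.0612 and 0.0996 with tamoxifen. Tyrobp, not called, was at 2.62 in vehicle and at 0.154 and 0.746 with tamoxifen. Itgb2, Cd53 and Fcer1g were also below vehicle in both tamoxifen libraries. The summed dendritic cell list was 1.51 in vehicle and 0.143 and 0.470 with tamoxifen. Much of these sums was Zbtb46, at 1.11 in vehicle and at 0.113 and 0.267 with tamoxifen. Markers of other cells that fell alongside were those of stroma, in 7 of 7 counted cases (sums of 259 in vehicle and 54.9 and 54.6 with tamoxifen), and of endothelium, in 5 of 5. Smooth muscle markers fell in 4 of 5 and red blood cell markers rose in 4 of 4. Epithelial markers rose in 1 and fell in 3 of 10 tested cases. The part of any of these cells in the tamoxifen result was not tested.

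Tamoxifen and estradiol are both ligands of the estrogen receptor. All 6 tested members were lower with tamoxifen than with estradiol, against 48.5% of all tested genes called, 12.3% higher and 36.2% lower, and their median was -2.00. Cd74 was 16.2 times higher with estradiol (log2 -3.85 ± 0.27 for tamoxifen against estradiol, adjusted p = 0.000258) and H2-Ab1 12.2 times higher (-3.20 ± 0.16, adjusted p = 8.88e-05). H2-DMb1 (-1.90 ± 0.21), H2-Eb1 (-2.00 ± 0.31) and H2-Aa (-2.00 ± 0.33) followed, with adjusted p from 0.00101 to 0.00413. H2-DMa was at -1.26 ± 0.29 (adjusted p = 0.0133), a call that ended without either tamoxifen library (adjusted p = 0.0616 and 0.0565). Macrophage markers were lower in 6 of 7 counted cases here, stroma markers in 6 of 7 and endothelial markers in 4 of 5, and smooth muscle markers were higher in 5 of 5. Markers of epithelium were higher in 2 of 10 and lower in 1. Their part was not tested.

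**Figure D2:**
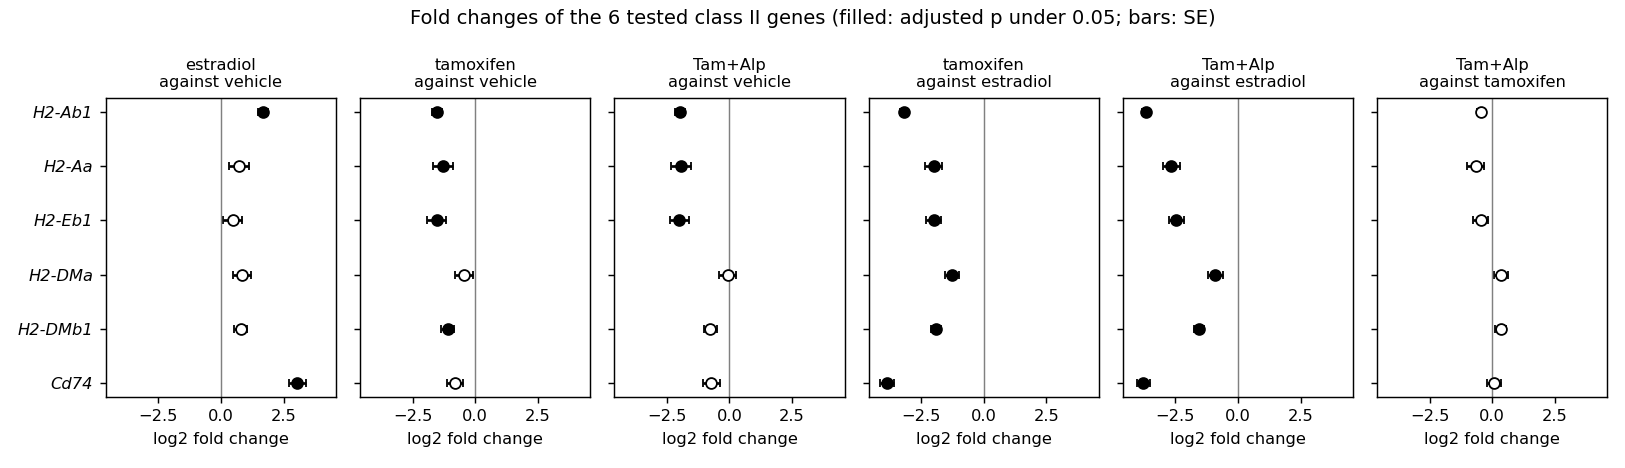
Log2 fold changes of the 6 tested class II members on the log2(FPKM + 1) scale in the 6 comparisons, with SE bars and filled symbols where the adjusted p is under 0.05. All 6 are filled and negative in both comparisons with estradiol, and none is filled in tamoxifen plus alpelisib (Tam+Alp) against tamoxifen.

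Adding alpelisib to tamoxifen asks what PI3K alpha inhibition changes in tamoxifen-treated epithelium. By limma, 0 of the 6 tested members were called, and 1, H2-Ab1, had an unadjusted p under 0.05, against 11.7% of all tested genes called, 6.93% higher and 4.81% lower. H2-Ab1 went from 2.68 ± 0.613 to 1.65 ± 0.0531 FPKM (SD, n = 2 each), a log2 fold change of -0.46 with an unadjusted 95% interval from -0.84 to -0.08 (adjusted p = 0.114). H2-Aa was at -0.66 (-1.46 to 0.13) and H2-Eb1 at -0.46 (-1.21 to 0.28). The DM genes had the other sign, with 0.36 (-0.34 to 1.06) for H2-DMa and 0.34 (-0.17 to 0.85) for H2-DMb1. Cd74 was at 0.08 (-0.58 to 0.73). These intervals leave room for changes in either direction for 5 of the 6 genes. Beside this, Cd14 was the 1 macrophage marker of 7 counted that rose (1.62 ± 0.18, adjusted p = 0.00591) and 0 fell. Of 3 tested neutrophil markers S100a8 and S100a9, which inflamed epithelia can also express, rose, and their list's sum went from 5.30 and 8.45 to 48.8 and 52.4. Of 7 counted stroma markers 3 rose and 1 fell, and of 5 general leukocyte markers 1 rose and 1 fell. Smooth muscle markers fell in 3 of 5 counted cases, red blood cell markers in 2 of 4 and endothelial markers in 1 of 5. Epithelial markers rose in 1 of 10. The part of any of these cells in these values was not tested.

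Tamoxifen plus alpelisib against vehicle shares its vehicle library with the comparisons above. H2-Ab1 (-1.98 ± 0.19, adjusted p = 0.000870), H2-Aa (-1.95 ± 0.40, adjusted p = 0.0130) and H2-Eb1 (-2.00 ± 0.38, adjusted p = 0.00963) fell, 3 of the 6 tested members, against 34.9% of all tested genes called, 13.1% higher and 21.8% lower. H2-DMb1 (-0.77 ± 0.26, adjusted p = 0.0623), Cd74 (-0.72 ± 0.33, adjusted p = 0.140) and H2-DMa (-0.08 ± 0.35, adjusted p = 0.885) did not pass, and the sign of H2-DMa turned with both other scalings. The calls of H2-Aa and H2-Eb1 ended without tamoxifen plus alpelisib 1 (adjusted p = 0.0684 and 0.0550), and with only the compared groups in the fit 5 members were called, H2-DMb1 and Cd74 among them. Macrophage markers rose in 1 and fell in 2 of 7 counted cases. Their sums were 136 and 134 against 54.5 in vehicle, and 33.7 and 30.2 against 33.7 without Cd14. Stroma markers fell in 6 of 7, and the part of these cells was not tested. Against estradiol all 6 tested members were lower with tamoxifen plus alpelisib (53.2% of all tested genes were called, 15.7% higher and 37.5% lower). The log2 fold change was -3.77 ± 0.27 for Cd74 and -3.66 ± 0.16 for H2-Ab1, and the call of H2-DMa (-0.91 ± 0.29, adjusted p = 0.0380) was kept in 6 of 14 alternatives. In this comparison macrophage markers were lower in 4 and higher in 1 of 7 counted cases, endothelial markers lower in 5 of 5, stroma markers lower in 4 of 7 and epithelial markers higher in 5 of 10, and their part was not tested.

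Of the other genes of the class II pathway, some rose and some fell in every comparison with vehicle. Of the 19 found among the rows, 14 were tested. With estradiol 4 rose and 2 fell against vehicle, with tamoxifen 3 rose and 4 fell, and with tamoxifen plus alpelisib 3 rose and 3 fell. These shares are near those of all tested genes, of which 22.7%, 14.9% and 13.1% rose and 12.8%, 24.1% and 21.8% fell. Cathepsin S (Ctss), the protease that cuts the last part of the invariant chain in antigen-presenting cells, rose in all 3 treated groups. Its FPKM was 2.95 in vehicle, 31.6 and 18.8 with estradiol, 33.9 and 31.8 with tamoxifen, and 32.1 and 27.8 with the combination (log2 2.69 ± 0.30 with estradiol and 2.97 ± 0.30 with the combination against vehicle, and adjusted p = 0.000692 with tamoxifen). All 6 treated libraries thus lay far above vehicle, the tamoxifen-treated ones included, in which the members were lowest. Cathepsin L (Ctsl), which does the same work in thymic epithelium, was between 16.4 and 44.4 in the 7 libraries and was not called against vehicle.

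Cathepsin D (Ctsd), an aspartic protease of lysosomes, was at 536 in vehicle, 377 and 230 with estradiol, 97.5 and 106 with tamoxifen, and 98.1 and 97.5 with the combination. It fell with tamoxifen (-2.38 ± 0.31, adjusted p = 0.00222). Cathepsin H (Ctsh), an aminopeptidase, rose with tamoxifen (1.11 ± 0.31, adjusted p = 0.0324), from 64.5 to 125 and 157. Legumain (Lgmn), an asparaginyl endopeptidase, was the processing enzyme called in opposite directions with estradiol (0.77 ± 0.20, adjusted p = 0.0271) and tamoxifen (-0.97 ± 0.20, adjusted p = 0.0108), with 11.2 in vehicle, 21.7 and 17.9 with estradiol, and 4.62 and 5.87 with tamoxifen. The thiol reductase Ifi30, which opens disulfides of antigens, was between 12.4 and 18.8 in the 7 libraries and was called in 0 of the 3 comparisons with vehicle.

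Among the factors that bind class II promoters, Nfya, a subunit of the Y box factor NF-Y, rose in all 3 treated groups. It was at 3.21 in vehicle, 12.1 and 14.7 with estradiol, 11.7 and 10.8 with tamoxifen, and 6.07 and 6.05 with the combination, and it fell when alpelisib was added to tamoxifen (-0.80 ± 0.14, adjusted p = 0.0211). Nfyb fell in all 3 against vehicle, by 0.56 with estradiol, by 0.74 with tamoxifen and by 0.66 with tamoxifen plus alpelisib on the log2 scale. Rfx5, the large subunit of the X box factor RFX, was at 4.09 in vehicle, 4.28 and 5.47 with estradiol, 1.44 and 2.43 with tamoxifen, and 2.93 and 3.26 with the combination. It fell with tamoxifen against vehicle (-0.82 ± 0.25, adjusted p = 0.0418) and against estradiol (-1.01 ± 0.20, adjusted p = 0.00812). Rfxap and Rfxank, the other RFX subunits, were not called in any comparison with vehicle. The CREB gene Creb1 had 2.81 in vehicle, 5.03 and 5.24 with estradiol, 3.59 and 3.16 with tamoxifen, and 2.31 and 2.08 with the combination. It rose with estradiol against vehicle (0.69 ± 0.16, adjusted p = 0.0184) and was not called there in the tamoxifen-treated groups. Against estradiol it was lower with tamoxifen (-0.49 ± 0.13, adjusted p = 0.0213) and with the combination (-0.94 ± 0.13, adjusted p = 0.00168). The DO chains H2-Oa and H2-Ob, which restrain DM, were listed at no more than 0.149 in any library.

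**Figure D3:**
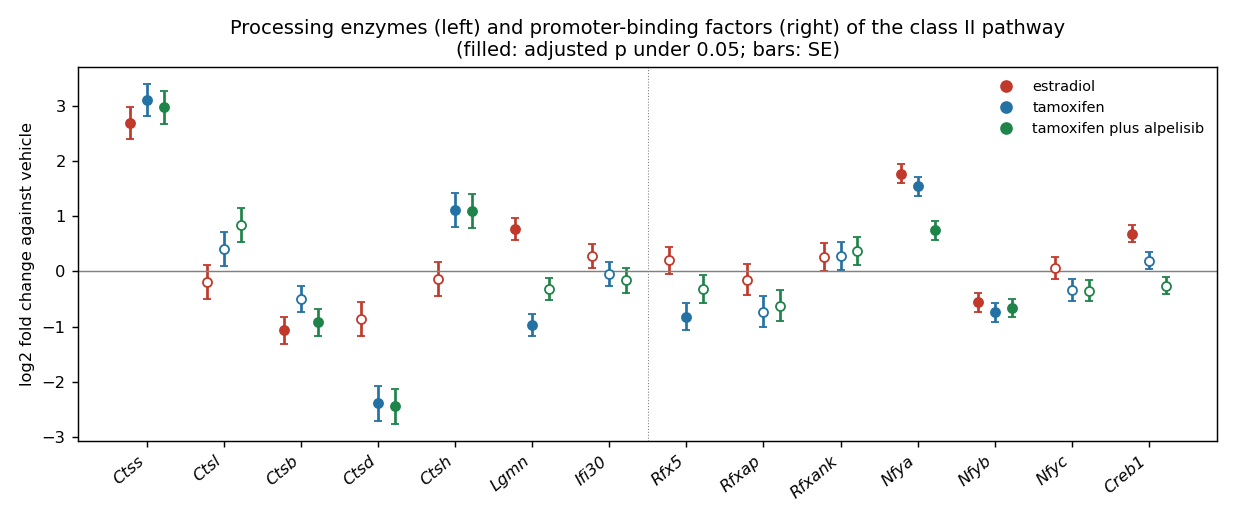
Log2 fold changes (log2(FPKM + 1) scale, SE bars) against vehicle of processing enzymes and promoter-binding factors of the class II pathway with estradiol, tamoxifen and tamoxifen plus alpelisib. Filled symbols have an adjusted p under 0.05; Ctss and Nfya are filled and positive in all 3 groups, which share 1 vehicle library.

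Genes of the interferon gamma axis, which induces Ciita, were compared in the same way. Of 11 counted, 5 rose and 0 fell with estradiol, where 22.7% of all tested genes rose and 12.8% fell. With tamoxifen 5 rose and 3 fell, against 14.9% and 24.1%, and with tamoxifen plus alpelisib 6 rose and 1 fell, against 13.1% and 21.8%. Ifng itself was listed at no more than 0.0991 in any library and at 0 in 5 of them. The receptor chain Ifngr2 was at 6.90 in vehicle and between 56.7 and 76.5 in the treated libraries. The transcription factor Irf1, which acts on a Ciita promoter, was at 10.3 in vehicle, 39.2 and 28.2 with estradiol, 25.6 and 42.9 with tamoxifen, and 55.5 and 58.9 with the combination. Irf1 rose in all 3 groups against vehicle and was highest in the group in which H2-Ab1 was lowest. Among 6 costimulation genes, which modify T cell responses, Icosl was the 1 counted, and it rose when alpelisib was added to tamoxifen (0.83 ± 0.19, adjusted p = 0.0404), from 1.39 and 1.84 to 3.598 and 3.65. The receptor gene Cd40 was at 0.103 in vehicle, 1.42 and 1.30 with estradiol, 0.111 and 0.0821 with tamoxifen, and 0.827 and 0.498 with the combination. The inhibitory ligand gene Cd274 was at 0.222 and 0.194 with tamoxifen and 0.900 and 1.06 with the combination, while Cd80 and Cd86 stayed at or under 0.248 in every library.

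MHC class I genes, whose products show peptides from the cytosol to CD8+ T cells, were set beside the class II members. With estradiol 9 of 12 rose and 0 fell, against 22.7% and 12.8% of all tested genes, with a median log2 fold change of 1.40. With tamoxifen 3 rose and 1 fell, against 14.9% and 24.1%, with a median of 0.85, where that of the tested class II members was -1.19. The heavy chain H2-K1 was at 190 in vehicle, 723 and 520 with estradiol, 285 and 352 with tamoxifen, and 297 and 327 with the combination. Set against it, H2-Ab1 was at 4.97% of the FPKM of H2-K1 in vehicle, 4.77% and 5.93% with estradiol, 1.09% and 0.639% with tamoxifen, and 0.570% and 0.494% with the combination. The same ratio of Cd74 was 9.87% in vehicle and 28.9% and 24.2% with estradiol, that of H2-Aa 3.98% and then 2.104% and 2.14%, and that of H2-Eb1 3.31% and then 1.79% and 1.21%. Relative to H2-K1, estradiol thus stood above vehicle for Cd74, below it for H2-Aa and H2-Eb1 and on both sides of it for H2-Ab1, while all 4 tamoxifen-treated libraries lay below vehicle for each of these genes. Nlrc5, the transactivator of class I genes and a relative of Ciita, was at 0.144 in vehicle, 2.24 and 4.06 with estradiol, and 0.195 and 0.285 with tamoxifen. The difference between the class I and class II genes was not tested.

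**Figure D4:**
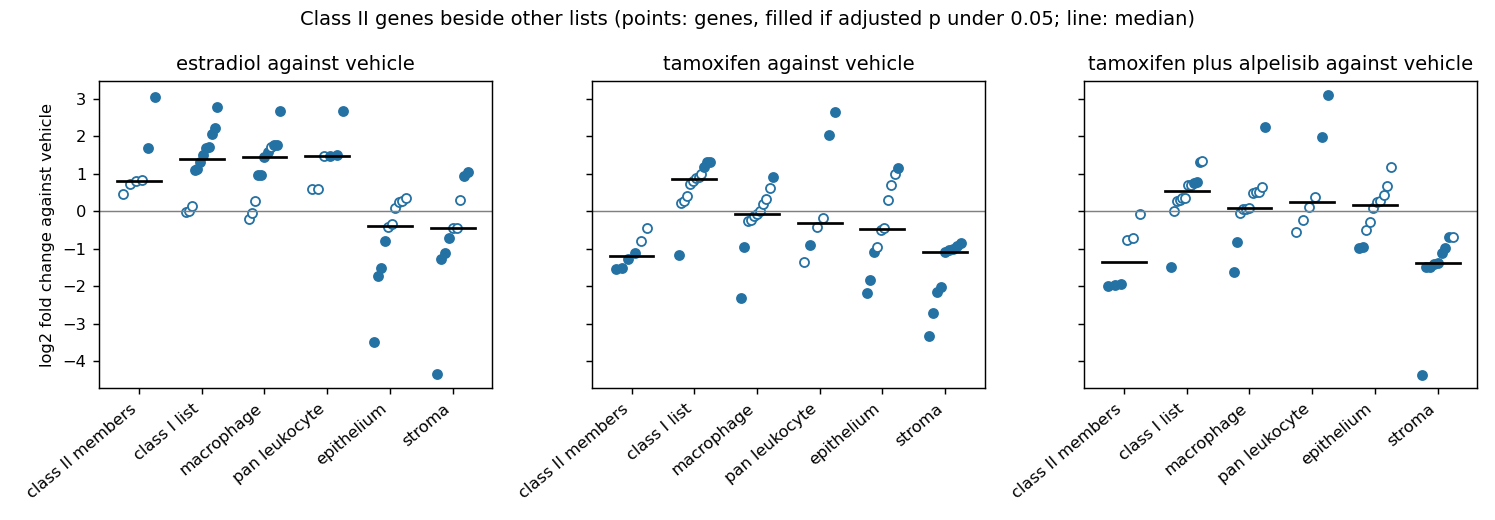
Log2 fold changes against vehicle (log2(FPKM + 1) scale) of the tested genes of the class II members, the class I list and marker lists of macrophages, leukocytes, epithelium and stroma, for estradiol, tamoxifen and tamoxifen plus alpelisib. Points are genes, filled where the adjusted p is under 0.05, and lines are list medians; the class II median is 0.81 with estradiol and -1.19 with tamoxifen.

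The genes with the most similar profile were ranked by the root mean square difference over the 7 libraries between their centred log2(FPKM + 1) values and the mean of the tested members, among 6437 other genes with a mean FPKM of at least 5. The nearest was the ubiquitin ligase gene Rnf141, with a difference of 0.18, at 14.2 in vehicle, 46.4 and 36.1 with estradiol, and between 6.07 and 7.90 in the tamoxifen-treated libraries. Indian hedgehog (Ihh), an epithelial signal to the uterine stroma, was next, at 6.39 in vehicle, 26.1 and 17.9 with estradiol, and between 1.94 and 3.997 in the tamoxifen-treated libraries. They were followed by the malic enzyme gene Me2, the receptor gene Tnfrsf19, the replication helicase genes Mcm6 and Mcm4, Stmn1, Tcf19 and Anxa6, with differences up to 0.25. These 7 points share 4 groups and are a description.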

How the data were processed

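Per the submitters' processing notes, the authors used CASAVA, Bowtie and Cufflinks, without versions. The deposited values were read as FPKM because they are not whole numbers. The only build in the notes is a human one, hg19, while symbols are mouse symbols, so genes are placed only through RefSeq's GRCm38.p6 promoter table. The assignment of reads to near-identical copies was not given in the sources used here.

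A limma-trend model of 4 group means on log2(FPKM + 1) over 7 libraries left 3 residual degrees of freedom, with a prior of 3.27, and was tested on simulated data. P values were adjusted within each of 6 comparisons over 12314 genes. Of the 24353 rows 6155 were at 0 throughout, 27 are names turned into dates, and 23697 symbols matched the mouse annotation.

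The members and lists were chosen with earlier results of these data known, so no list was tested as a whole. Named are the 7 members, genes of the lists that passed or define a cell type, and the 10 genes nearest in profile, apart from items that are not reported here. Other genes of the lists are named where they bear on a step of the pathway and were chosen after their values were seen. Depth was estimated from the lowest values of single-transcript genes of GENCODE M21. R 4.3.3, limma 3.58.1, Python 3.11.15, numpy 2.4.6, pandas 2.3.3 and matplotlib 3.10.9 were used.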

Additional observations from a re-analysis of the deposited data

How the results depend on the processing

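Alternatives were a pseudocount of 0.1, no filter, a filter asking for 1 FPKM in no fewer than 2 libraries, median-of-ratios and quantile scaling, robust empirical Bayes, only the compared groups, a replicate block and each replicate left out. Of 510 single-gene values under these, 465 kept their direction and their side of the threshold, 29 lost and 10 gained a call, and 6 turned sign. Those that turned were uncalled: Cd74 in tamoxifen plus alpelisib against tamoxifen (-0.05 without tamoxifen replicate 1 and -0.11 without tamoxifen plus alpelisib replicate 2; -0.11 to 0.27 with 1 replicate left out) and H2-DMa in tamoxifen plus alpelisib against vehicle (0.0024 with median-of-ratios scaling, 0.068 with quantile normalization, 0.12 with the replicate block, and -0.35 to 0.19 with 1 replicate left out, 0.19 without tamoxifen plus alpelisib replicate 2).

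Members called for tamoxifen against vehicle, 4 in the main fit, were 1 with no filter, 2 with the replicate block and 1 to 4 with 1 replicate left out. For estradiol against vehicle the 2 members became 0 with only the compared groups, where 2 had an unadjusted p under 0.05, and 2 to 4 with 1 replicate left out. For tamoxifen plus alpelisib against vehicle the 3 became 5 with only the compared groups and 1 to 3 with 1 replicate left out. Over all genes, the 1445 calls for tamoxifen plus alpelisib against tamoxifen became 870 with no filter, 589 with the replicate block and 10 to 1765 with 1 replicate left out. The 4366 for estradiol against vehicle became 197 with only the compared groups and 2803 to 5035 with 1 replicate left out. The 4299 for tamoxifen plus alpelisib against vehicle became 6843 and 1898 to 5070 in these settings, and the 6548 for tamoxifen plus alpelisib against estradiol became 3875 to 6607 with 1 replicate left out. Fewer samples were fitted where a replicate or a group was left out, and for the other settings the cause was not tested. The labels do not say whether libraries with the same mouse number belong together. Differences between replicates 1 and 2 correlated across genes at -0.40 between estradiol and tamoxifen and at -0.18 between estradiol and the combination. Between tamoxifen and the combination the value was 0.27. Each value rests on 1 difference per group, so it cannot decide whether the numbers pair the libraries.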
